A study of Mus musculus with 2 samples.

Results

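The 5 mouse Tfap2 genes (Tfap2a, Tfap2b, Tfap2c, Tfap2d and Tfap2e) encode the AP-2 transcription factors, and open chromatin at them was read from DNase-seq of whole embryos. DNase-seq cuts accessible DNA with DNase I and maps the cut ends. Whole B6NCrl embryos of 10.5 days, male and female pooled, formed 1 group of 2 biological replicates, with no mutant, treatment or second age. The authors deposited 2 region lists for each replicate on mm10. Peaks are 150 bp wide and carry a whole-number strength that reached 148 in replicate 1 and 149 in replicate 2 on nuclear chromosomes. Hotspots are wider regions that carry a −log10 q-value. The definition of the strength is not given in the sources used here, so it was used as the authors' score to describe and rank peaks. Members' elements were taken from each gene body in the GENCODE M21 annotation plus 100 kb on each side, a span called the window here. The Tfap2b and Tfap2d windows overlap by 157 kb, because only 42.6 kb separates these neighbours on chromosome 1, and elements of both were counted once in any total. The windows held 87 peaks in replicate 1 and 254 in replicate 2, of 207946 and 229568 nuclear peaks in all. They held 81 hotspots in replicate 1 and 168 in replicate 2, of 188404 and 188191 in all.

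AP-2 proteins bind DNA as dimers, through a basic region and a helix-span-helix domain, at GC-rich palindromes of the form GCCNNNGGC. In the mouse embryo Tfap2a is needed for closure of the cranial neural tube, for the face and for neural crest, the cell population that migrates out of the dorsal neural tube. Tfap2b acts in crest, sympathetic neurons, kidney tubules and the ductus arteriosus, Tfap2c in trophoblast and early germ cells, Tfap2d in the midbrain and retina, and Tfap2e in olfactory and vomeronasal neurons. DNase-seq reports accessibility, not transcription. In a whole embryo, an element open in few cells and an element weakly open in many cannot be told apart.

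The replicates stood apart at these loci, so every result is given for each of them. Genome-wide they differed little in number: replicate 2 had 1.10 times the peaks of replicate 1, and its median peak strength was 50 against 41. The share of peaks that overlapped a peak of the other replicate by at least 1 bp was 77.0% in replicate 1 and 27.6% in replicate 2 for the member windows, against 74.5% and 67.6% for all nuclear peaks. No read counts come with the region lists, so the depth of each library is unknown. With 1 group of 2 replicates there is no contrast to test, and all comparisons below are descriptions.

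A few elements carry most of what follows, and their plus-strand sequences are shown because they include the strongest element in the Tfap2a gene, the strong elements beside the other genes, the start-site peaks of Tfap2d and Tfap2e, and the shared elements with an AP-2 palindrome. Bases are from the RefSeq GRCm38.p6 genome (mm10), 5′ to 3′. Capitals mark a GCCNNNGGC match or, in the first line, a match to the same palindrome with a spacer 1 base longer. Both motifs equal their own reverse complement, so a match covers both strands.
Tfap2a intron, chr13:40722796-40722945: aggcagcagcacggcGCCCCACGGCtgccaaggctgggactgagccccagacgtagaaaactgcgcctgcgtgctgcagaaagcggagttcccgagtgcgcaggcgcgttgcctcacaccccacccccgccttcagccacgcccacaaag
Tfap2a alternative promoter, chr13:40730716-40730865: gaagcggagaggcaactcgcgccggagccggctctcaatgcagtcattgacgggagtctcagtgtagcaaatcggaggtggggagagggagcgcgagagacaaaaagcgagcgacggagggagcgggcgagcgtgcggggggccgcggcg
Tfap2a downstream, chr13:40704336-40704485: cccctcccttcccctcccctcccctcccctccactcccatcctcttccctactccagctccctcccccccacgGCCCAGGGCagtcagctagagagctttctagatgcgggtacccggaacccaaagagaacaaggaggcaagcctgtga
Tfap2a downstream, chr13:40709076-40709225: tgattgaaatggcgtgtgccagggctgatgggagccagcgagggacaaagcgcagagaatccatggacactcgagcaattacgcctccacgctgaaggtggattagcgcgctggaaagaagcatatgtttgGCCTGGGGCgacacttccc
Tfap2b upstream, chr1:19206336-19206485: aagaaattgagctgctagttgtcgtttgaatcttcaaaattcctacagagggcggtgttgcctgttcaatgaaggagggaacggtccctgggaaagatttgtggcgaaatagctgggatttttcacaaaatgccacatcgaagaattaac
Tfap2b downstream, chr1:19241476-19241625: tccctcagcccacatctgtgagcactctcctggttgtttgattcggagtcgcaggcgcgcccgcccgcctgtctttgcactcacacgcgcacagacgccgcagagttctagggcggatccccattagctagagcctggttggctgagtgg
Tfap2d intron, chr1:19109796-19109945: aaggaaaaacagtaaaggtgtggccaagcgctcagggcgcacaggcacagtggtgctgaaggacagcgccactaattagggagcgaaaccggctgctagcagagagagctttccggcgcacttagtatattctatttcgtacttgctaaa
Tfap2d promoter, replicate 2 alone, chr1:19102856-19103005: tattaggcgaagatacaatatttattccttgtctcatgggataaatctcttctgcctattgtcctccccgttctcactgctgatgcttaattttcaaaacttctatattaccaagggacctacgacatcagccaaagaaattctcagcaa
Tfap2c upstream, chr2:172547236-172547385: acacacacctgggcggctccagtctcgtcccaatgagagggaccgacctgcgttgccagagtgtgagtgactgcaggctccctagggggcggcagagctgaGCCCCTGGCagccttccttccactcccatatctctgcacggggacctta
Tfap2e promoter, chr4:126736256-126736405: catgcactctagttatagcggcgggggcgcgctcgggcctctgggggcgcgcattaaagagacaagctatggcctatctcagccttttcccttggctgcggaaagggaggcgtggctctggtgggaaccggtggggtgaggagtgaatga
Tfap2e upstream, chr4:126741556-126741705: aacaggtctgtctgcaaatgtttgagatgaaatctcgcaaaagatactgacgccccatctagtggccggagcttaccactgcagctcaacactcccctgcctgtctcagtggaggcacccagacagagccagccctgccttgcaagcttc
The lines differ widely in base composition. The Tfap2d promoter element was 38.7% GC with 3 CpG dinucleotides, and the Tfap2e promoter element was 61.3% GC with 10. The Tfap2a intron element was 68.0% GC with 13 CpG, and its neighbour at the alternative promoter was 67.3% GC with 19.

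Start sites were open at 4 of the 5 members in both replicates: Tfap2a, Tfap2b, Tfap2c and Tfap2e each had a peak within 1 kb of an annotated transcription start site (TSS). The background was 69.7% of 21938 protein-coding genes. Tfap2d had such a peak in replicate 2 alone, a state found at 2.18% of protein-coding genes. No member was open in replicate 1 alone, as 1.09% of genes were. The strongest start-site peak of Tfap2a had a strength of 111 in replicate 1 and 108 in replicate 2 (109.5 ± 2.12, SD, n = 2), though it was a different peak in each. That of Tfap2c had 85 and 108 (96.5 ± 16.3, SD, n = 2), again at different TSSs. That of Tfap2b had 66 and 91 (78.5 ± 17.7, SD, n = 2). Tfap2e had 68 and 82 (75 ± 9.90, SD, n = 2). The replicate values of Tfap2b overlapped those of Tfap2c and of Tfap2e, while both values of Tfap2c lay above both of Tfap2e. Replicate 2 of Tfap2c equalled that of Tfap2a. At its 5′-most TSS alone Tfap2c had 85 and 78, which overlapped the 68 and 82 of Tfap2e. The Tfap2d peak, whose sequence is printed above, lay 17 bp upstream of the gene's TSS with a strength of 68 in replicate 2, while replicate 1 had no peak nearer than 6774 bp.

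The 15300 genes open in both replicates had a median strength of 109 in replicate 1 and 118 in replicate 2. Tfap2a was near this median in replicate 1 and below it in replicate 2. Tfap2b, Tfap2c and Tfap2e were below it in both. In replicate 1 and replicate 2, the share of open genes with a weaker peak was 51.9% and 35.2% for Tfap2a and 25.6% and 35.2% for Tfap2c. It was 15.2% and 20.9% for Tfap2b, and 16.3% and 15.7% for Tfap2e. Some protein-coding neighbours that lie in or reach into the windows were stronger at their start sites. Psmb2, a proteasome subunit gene next to Tfap2e, had 122 in both replicates. Rtf2, a replication-fork gene upstream of Tfap2c, had 126 and 131 at a peak outside the Tfap2c window. Peaks inside that window reached 85 in replicate 1 and 108 in replicate 2. The divergent pair Ncdn and AU040320 beside Tfap2e shared one peak of 131 and 137. Gcnt7, which lies within Rtf2, and Fam209 had none in either replicate.

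Tfap2a (chr13:40715302-40738376, minus strand, 23.1 kb) has 9 annotated TSSs in 6 groups, where a group holds TSSs at most 500 bp apart. Its 5′-most TSS, of a protein-coding transcript, was not its strongest: the peak over it had 62 in replicate 1 and 87 in replicate 2. The TSS group 4.40 kb downstream, which starts 2 coding transcripts, lay directly under a peak of 111 and 105. A further coding TSS, 7.93 kb downstream, lay 273 bp from the GC-rich peak of the second printed line, with 94 and 108. The most downstream group, at 8.97 kb, had no peak within 1 kb in either replicate. Over the upstream part of the gene, replicate 2 had 1 hotspot of 6003 bp (chr13:40732663-40738665) holding 5 of the member's TSSs, and only 119 hotspots of that replicate were wider. In replicate 1 the same TSSs lay in separate hotspots of 137 bp and 372 bp or in none.

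Tfap2b (chr1:19208914-19238576, plus strand, 29.7 kb) has 5 TSSs in 3 groups. The first, which starts 2 coding transcripts, was open in both replicates with 66 and 91. The other groups, 3.14 and 4.96 kb downstream, had 83 and 65 in replicate 2 and no peak in replicate 1. Tfap2c (chr2:172549593-172558622, plus strand, 9.03 kb) has 6 TSSs in 3 groups, all open in both replicates. The peak beside its 5′-most TSS had 85 and 78. A second group 1.06 kb downstream, of 4 transcripts, had 84 and 108. The most downstream group, for a processed transcript, had 44 and 78, but at different peaks. The peak of 78 was found in replicate 2 alone, and the shared peak there had 44 and 70. Tfap2d (chr1:19103022-19166346, plus strand, 63.3 kb) had 68 and 50 at its 2 groups in replicate 2, and nothing in replicate 1. Tfap2e (chr4:126716006-126736240, minus strand, 20.2 kb) has 1 TSS, with 68 and 82, inside hotspots of 366 bp and 359 bp.

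**Figure D1:**
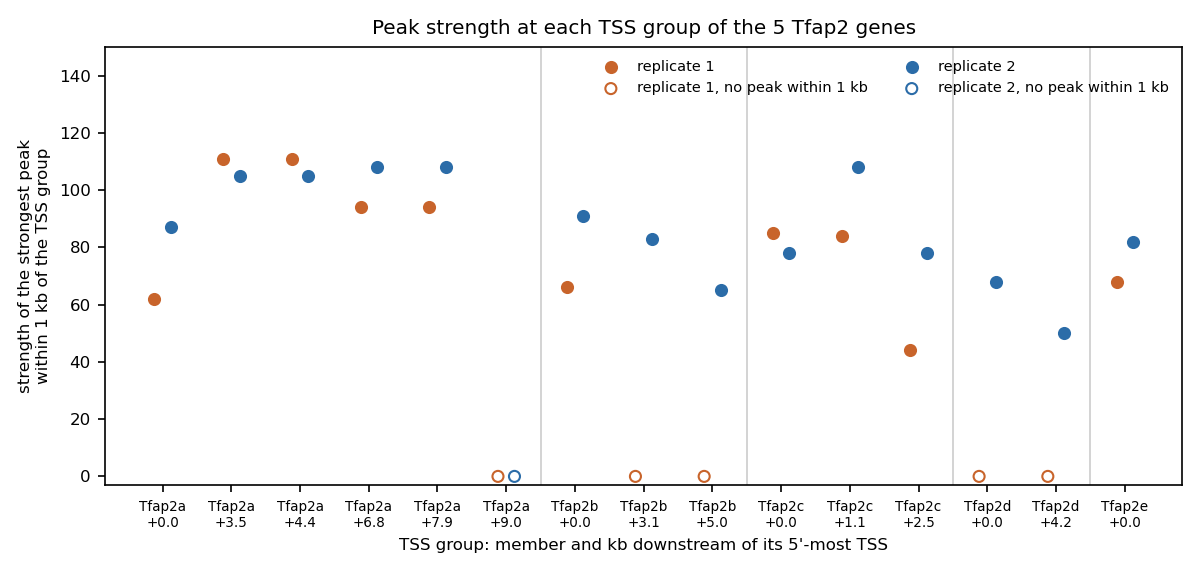
Strength (authors' score) of the strongest peak within 1 kb of each TSS group of the 5 members, 1 point per replicate, with open circles at 0 for no peak. Tfap2a lies highest at its internal groups (94 to 111), Tfap2d has points only in replicate 2 (68 and 50), and Tfap2a at 9.0 kb has none in either replicate. The Tfap2a groups at 3.5 and 4.4 kb show the same peaks, as do those at 6.8 and 7.9 kb.

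Beyond the start sites, peaks more than 1 kb from the TSS of any gene and present in both replicates were called distal shared. There were 48 in the windows: 11 for Tfap2a, 15 for Tfap2c, 13 for Tfap2e, and 7 and 8 in the overlapping windows of Tfap2b and Tfap2d. The median over all protein-coding genes was 11. The Tfap2b and Tfap2d counts exceeded those of 27.4% and 31.9% of genes, and the Tfap2c count exceeded 64.1%. In number of shared distal elements no member therefore lay at an extreme of the range. Among genes of similar length, the Tfap2b and Tfap2d counts exceeded those of 25.2% and 19.7%, and the Tfap2c count exceeded 72.4%. For Tfap2a and Tfap2e these shares were 47.5% and 58.1%.

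The strongest element of the Tfap2a window in each replicate was not at a start site of the gene. It lay in a Tfap2a intron at chr13:40722796-40722945, is the first printed line, and had 114 in replicate 1 and 120 in replicate 2. A second element, which began 240 bp further on in replicate 1 and touched a Tfap2a exon, had 93 and 110 and covered the TSS of Gm47061, an antisense RNA gene. In replicate 1 it was weaker than the start-site peaks of 111 and 94. Because of the Gm47061 TSS neither element counted as distal, and both were picked out after their values were seen. The strongest distal shared peaks of Tfap2a had 62 and 83 (in an exon of the lincRNA gene Gm9979, 23.6 kb from a Tfap2a TSS), 65 and 75 (10.8 kb away, upstream of the gene) and 65 and 74 (79.0 kb away). All 3 were stronger in replicate 2, as was the median pair of shared peaks genome-wide.

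Around Tfap2b and Tfap2d the same 3 elements led both windows. One lay 27.6 kb from a Tfap2b TSS, beyond the end of the gene, and had 84 in replicate 1 and 97 in replicate 2. It was 62.0% GC with 11 CpG and lay 1099 bp from the lincRNA gene Gm28340. One lay in a Tfap2d intron, 2.61 kb from a Tfap2d TSS, and had 83 and 97. In replicate 1 this intronic element was the only peak in the body of Tfap2d, and in replicate 2 it was stronger than the promoter peak of 68. The other lay 2.43 kb upstream of Tfap2b and had 76 and 94, above the Tfap2b start-site peak in each replicate.

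For Tfap2c the leading distal element lay 2.21 kb upstream, with 79 and 99, and held a GCCNNNGGC, marked in its printed line. Others lay 48.0 kb away with 65 and 96, and 61.8 kb away with 61 and 76. Tfap2e had the strongest distal elements of the family. One, 5.32 kb upstream of the TSS, had 100 in replicate 1 and 110 in replicate 2, above the gene's own start-site peak of 68 and 82. Another lay in an intron of Psmb2 with 93 and 97, and another 80.6 kb away had 85 and 100. The element at 61.8 kb was intergenic, and its nearest TSS was that of Tfap2c. Those at 48.0 and 80.6 kb were nearest to the TSSs of the processed pseudogenes Gm14303 and Gm12933. Which gene any of these more distant elements acts on was not tested.

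**Figure D2:**
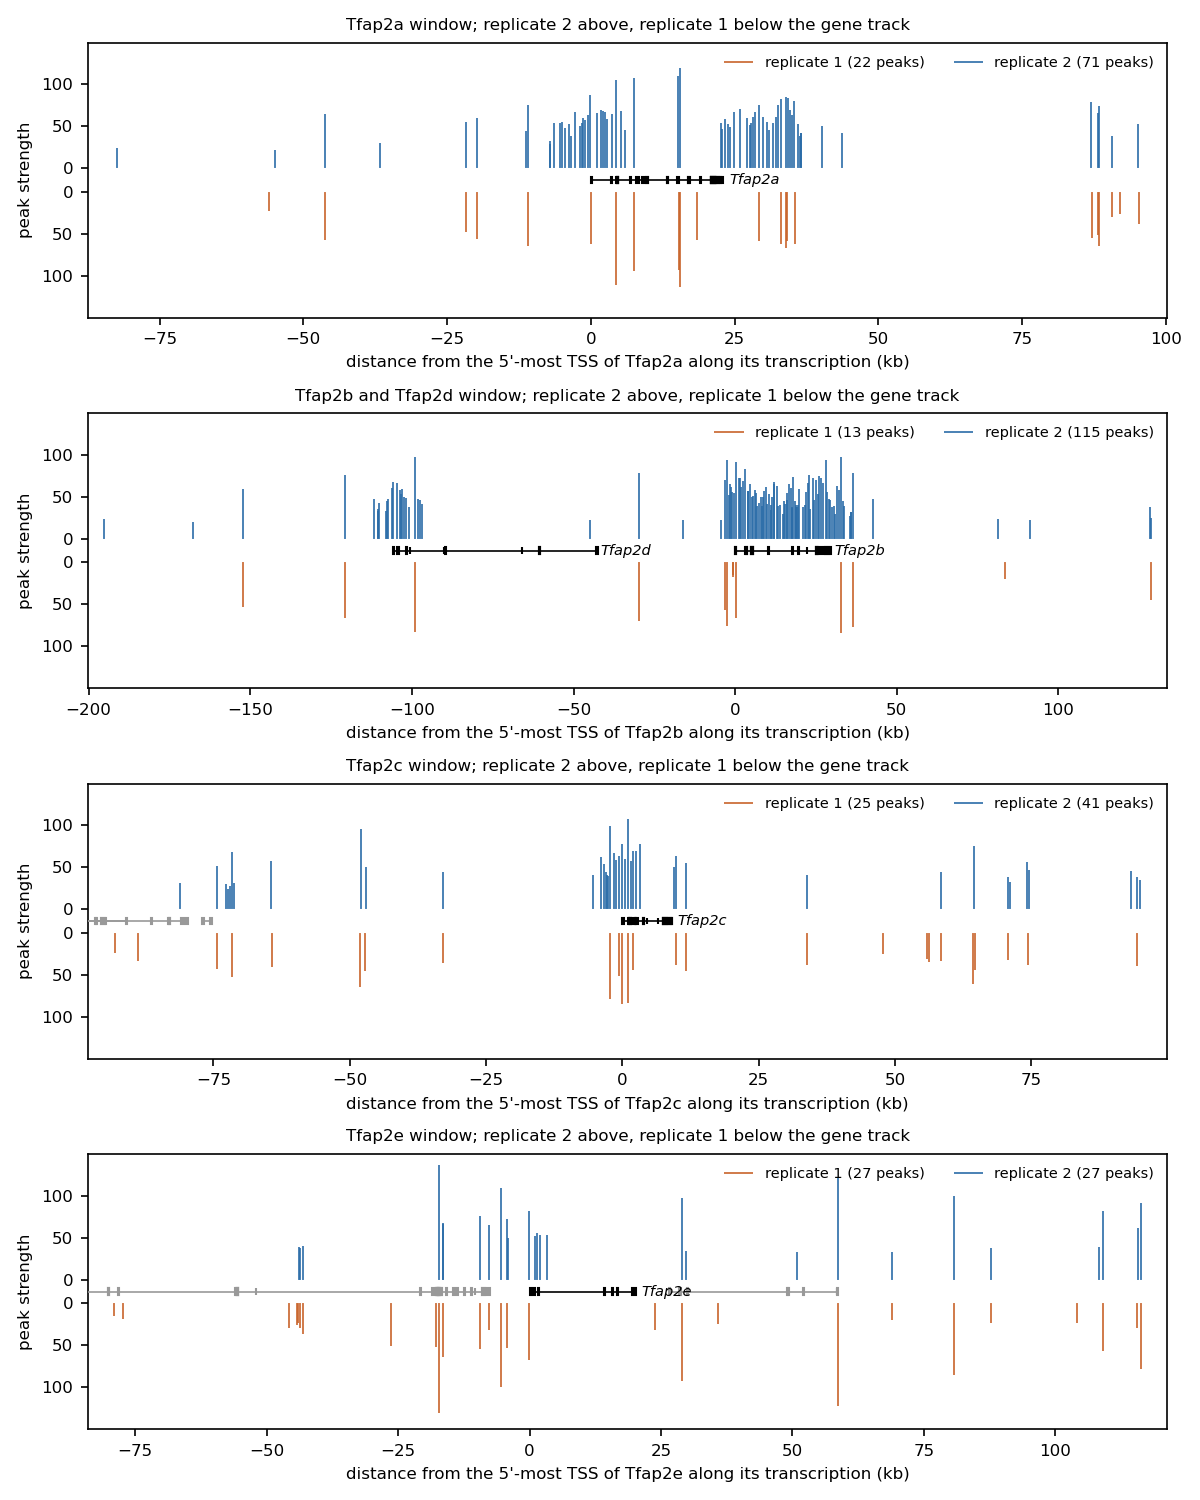
Each vertical line is 1 peak, its length the authors' strength, with replicate 2 above and replicate 1 below the gene track, against distance in kb from the 5′-most TSS along the direction of transcription; boxes are exons, black for members and grey for other protein-coding genes. Replicate 2 has dense blocks over Tfap2b, at the start of Tfap2d, around Tfap2c and on both sides of Tfap2a, and the Tfap2e window has 27 peaks in each replicate.

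Peak numbers differed most between the replicates at Tfap2b and Tfap2d. The Tfap2d window had 11 peaks in replicate 1 and 111 in replicate 2, and the Tfap2b window had 11 and 95. Tfap2a had 22 and 71, Tfap2c had 25 and 41, and Tfap2e had 27 and 27. The median window of a protein-coding gene had 27 in replicate 1 and 30 in replicate 2. After adding 1 to each count, the ratio of replicate 2 to replicate 1 was 9.33 for Tfap2d, 8 for Tfap2b, 3.13 for Tfap2a, 1.62 for Tfap2c and 1 for Tfap2e, against a median of 1.10 for all genes. A ratio of at least 2 was found at Tfap2a, Tfap2b and Tfap2d, and at 3.51% of all protein-coding genes. By this ratio Tfap2d ranked 2, Tfap2b 3 and Tfap2a 98 among 21938 genes, while Tfap2e ranked 14172. The ranks of Tfap2b and Tfap2d are not independent, since their windows share most of these peaks. With flanks of 50 kb the ratio without the added 1 was 5.33 for Tfap2d and 10.9 for Tfap2b, against 10.1 and 8.64 with 100 kb, so their order depends on the flank.

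**Figure D3:**
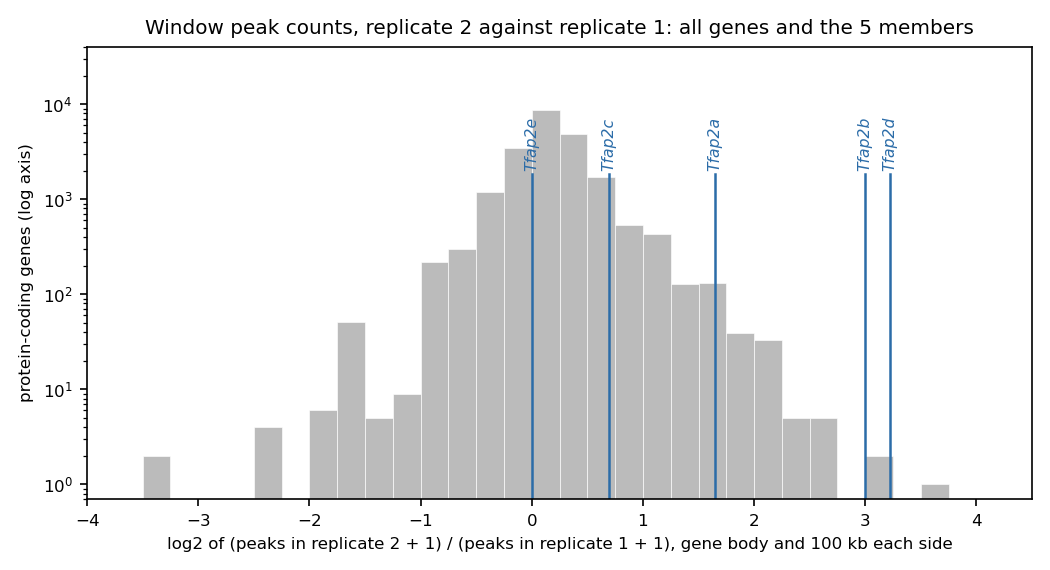
Number of protein-coding genes (log axis) by log2 ratio of window peak counts, replicate 2 over replicate 1 after adding 1, with the 5 members as lines. Tfap2d (3.22) and Tfap2b (3) lie at the right edge, Tfap2a at 1.65, Tfap2c at 0.69 and Tfap2e at 0.

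The excess lay close to the genes. The body of Tfap2b held 1 peak in replicate 1 and 63 in replicate 2, and hotspots covered 0.698% and 85.3% of it. The same shares over all protein-coding gene bodies were 3.09% and 4.13%. Within 10 kb outside Tfap2a the counts were 2 and 32 peaks, with 1.40% and 70.9% of the bases in hotspots, while at 50 to 100 kb they were 7 and 7. The body of Tfap2c was 8.29% and 43.4% inside hotspots, and its surroundings at 10 to 50 kb had 8 peaks in replicate 1 and 5 in replicate 2. The body of Tfap2d held 1 and 12 peaks. Of its window's larger total, 63 of the replicate 2 peaks lay 50 to 100 kb from it, where the Tfap2b gene is. The body of Tfap2e held 0 and 4 peaks.

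**Figure D4:**
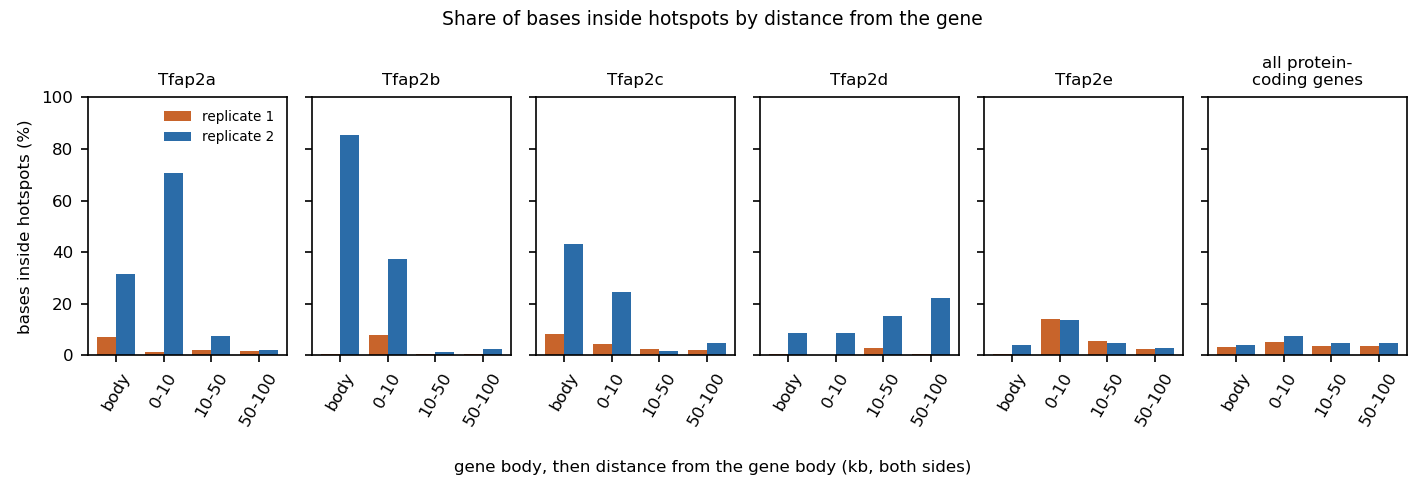
Percent of bases inside hotspots in the gene body and in 3 distance bands on both sides, for each member and for all protein-coding genes, by replicate. Replicate 2 reaches 85.3% in the Tfap2b body and 70.9% within 10 kb of Tfap2a, while all genes stay between 3.09% and 7.59%.

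In replicate 2 the extra peaks followed one another in runs, defined after the data were seen as successive peaks whose starts are at most 1 kb apart. The longest run at the family held 53 peaks over 23.1 kb (chr1:19205756-19228805), began upstream of Tfap2b and covered 67.1% of the gene. Its peaks began a median of 420 bp apart, and their strengths ranged from 30 to 94. Replicate 1 had 5 peaks in the same span. Only 2 runs of replicate 2 held more peaks, up to 65. A second run of 25 peaks over 12.97 kb continued through the end of Tfap2b. Tfap2a had a run of 22 peaks over 9.67 kb beyond its 3′ end (chr13:40701656-40711325), where replicate 1 had 5 peaks, and 12 peaks in a run from its 5′-most TSS outward. Tfap2c had 16 peaks over 7.29 kb across its first TSSs, where replicate 1 had 5. Tfap2d had 7 and Tfap2e 3. The longest runs of replicate 1 in these loci held 2 to 4 peaks.

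Runs of at least 10 peaks in replicate 2 touched the bodies of 3 members, Tfap2a, Tfap2b and Tfap2c, and those of 3.23% of all protein-coding genes. At Tfap2a the contact was slight: the run from its 5′-most TSS outward covered only 0.091% of the gene. Runs of at least 20 touched 1 member, Tfap2b, and 0.757% of all genes. Such runs were also unequal between the replicates in their genome-wide total: 165 of at least 20 peaks in replicate 2 and 20 in replicate 1. What sets the replicates apart was not tested. The labels name the same strain, age and sex pooling for both, and list 2 sequencer models for replicate 2 and none for replicate 1.

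Counted by element, the 4 separate loci held 274: 67 shared, 184 in replicate 2 alone, 20 in replicate 1 alone and 3 that overlapped an already paired peak. Of the 184, 103 lay at Tfap2b and Tfap2d, 52 at Tfap2a, 21 at Tfap2c and 8 at Tfap2e. Their median strength was 50, against 36 for all replicate 2 peaks without a partner. Only 2 of the 184 touched a hotspot of replicate 1, against 10.1% of all such peaks. The strongest at each locus were a peak of 94 in a Tfap2b exon and one of 78 in a Tfap2c intron. At Tfap2a it was one of 75 in a Gm9979 exon beyond the gene, and at Tfap2e one of 56 in an intron. These are not the strongest of all 184, since a further Tfap2b intron peak had 83. The strongest peak found in replicate 1 alone lay in a Tfap2a intron, with 58. Where both replicates had a peak they differed less: the median log2 ratio of strength, replicate 2 over replicate 1, was 0.30 over the 67 shared elements and 0.26 over all 152116 shared pairs.

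Hotspot length showed the same order as the peaks. The Tfap2d window had 2.88 kb in hotspots in replicate 1 and 42.0 kb in replicate 2, and that of Tfap2b 2.82 and 36.4 kb. Tfap2a had 5.38 and 29.6 kb, Tfap2c 6 and 15.0 kb, and Tfap2e 9.84 and 10.2 kb. The medians over all protein-coding genes were 8451 bp and 11440 bp. Replicate 1 was thus below the all-gene median at Tfap2a, Tfap2b, Tfap2c and Tfap2d, and replicate 2 was above it there.

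The AP-2 palindrome GCCNNNGGC was present in 2 of the 48 distal shared elements (4.17%), those printed for Tfap2c upstream and for Tfap2a downstream at chr13:40709076-40709225, and in 5.41% of all 111406 distal shared peaks. The other marked Tfap2a element, at chr13:40704336-40704485, lay 330 bp from the TSS of Gm9979 and so was not distal. The median GC content was 52.7% in the members' distal shared elements and 50% in all. Elements of replicate 2 alone held the palindrome in 8 of 184 cases (4.35%), against 4.86% of all such peaks, at a median GC of 46.7% against 48.7%. The form with the longer spacer was found in 2 of the 48 (4.17%) and in 5.31% of all.

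Core motifs of other embryonic factors were searched on both strands in the same elements. TAATTA, a homeodomain core, was in 5 of the 48 distal shared elements (10.4%) and in 4.28% of all. ACAATG, a SOX core, was in 0 of the 48 and in 9.76% of all. CATCTG, an E-box, was in 6 (12.5%) and in 19.8% of all. GGAATG, bound by TEAD factors, was in 6 (12.5%) and in 11.4% of all. AGATAA, bound by GATA factors, was in 2 (4.17%) and in 6.40% of all. These are counts of letters in 150 bp windows, over few elements. RefSeq promoter windows around gene starts were matched for 4 members (7 windows), with none for Tfap2c. None of the 7 holds GCCNNNGGC, which 16.6% of 32851 promoter windows hold. Their GC content ranged from 39.7% to 61%. The 7 are not all separate, since a Tfap2d window overlaps another almost wholly, and they leave out the 5′-most TSSs of Tfap2a and Tfap2b.

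Genes that act with AP-2 proteins were open at their start sites throughout. All 10 of the cofactors and modifiers had a peak in both replicates, beside 69.7% of all protein-coding genes, with a median strength of 122.75. Strongest were Wwox, whose product binds AP-2 proteins (121 in replicate 1 and 136 in replicate 2), the acetyltransferase Ep300 (131 and 123), and Kctd1 (122 and 131) and Kctd15 (119 and 134), both repressors of AP-2 activity. Cited2, a coactivator needed with Tfap2a in the neural crest, had 116 and 127. None of the 10 had a window ratio of at least 2, a ratio found at only 3.51% of all protein-coding genes.

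Of 15 transcription factors that work beside AP-2 in ectoderm and crest, 14 were open in both replicates, with a median of 100.5. Trp63, the epidermal stem cell factor, had a peak in replicate 2 alone, of 34. Sox9 (130 and 131), Msx1 (124 and 126) and Gata2 (115 and 117) were strongest, and the crest factor Sox10 had 33 and 51. Window ratios of at least 2 were found at 4 of the 15, beside 3.51% of all protein-coding genes. These were Gata3 (22 and 79 peaks), Pax3 (41 and 111), Gata2 (25 and 61) and Dlx3 (32 and 65). The windows of Grhl2 and Grhl3, which drive surface ectoderm, had 49 and 50, and 42 and 42 peaks. Of 8 genes described as AP-2 targets, 5 were open in both replicates, close to the 69.7% of all protein-coding genes, led by the receptor gene Kit (115 and 122), the cell-cycle inhibitor Cdkn1a (108 and 108) and the receptor gene Erbb2 (91 and 94). The simple-epithelium keratins Krt8 (46 and 55) and Krt18 (47 and 58) were weaker. The basal keratin Krt5 had a peak of 20 in replicate 1 alone, and Krt14 and Dbh, the noradrenaline enzyme, had none.

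**Figure D5:**
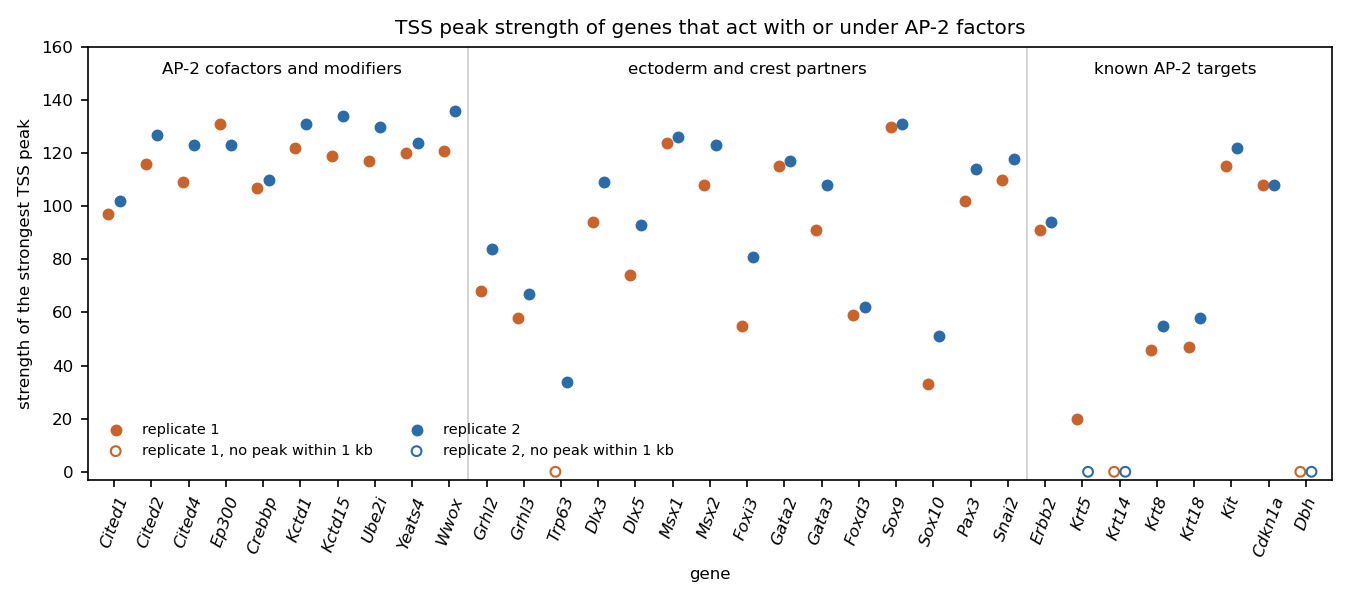
Strength (authors' score) of the strongest peak within 1 kb of a TSS for genes that act with or under AP-2 factors, 1 point per replicate and open circles at 0 for no peak. The cofactors lie between 97 and 136, partners and targets spread down to 20, and Krt14 and Dbh have no peak in either replicate.

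Markers of the tissues in a 10.5-day embryo were set beside these values. Neural tube, neural crest, heart, somite, limb bud and kidney markers were each open at 3 of 3 genes in both replicates, and surface ectoderm markers at 2 of 3, beside 69.7% of all protein-coding genes. Heart and somite markers had a window ratio of at least 2 at 2 of 3 genes each, among them Nkx2-5 (23 and 77 peaks), limb bud and kidney markers at 1 of 3 each, and neural tube, neural crest and surface ectoderm markers at 0 of 3 each, beside 3.51% of all genes. Tbx5 (26 and 83 peaks) was counted under both heart and limb bud. Pax3 (41 and 111) was counted under somite but is also among the crest partners above, so the somite and crest counts depend on its placement. Trophoblast, which also uses Tfap2a and Tfap2c and could remain on a dissected embryo, had 2 of 5 markers open, Elf5 (61 and 77) and Ascl2 (95 and 99), while Gcm1, Prl2c2 and Ctsq had no start-site peak in either replicate. Decidua markers were open at 0 of 2. Of germ cell markers 3 of 4 were open, near the share of all genes, with Ddx4 closed. The part of these cell types in the peaks at Tfap2c was not tested.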

How the data were processed

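DNase-seq peak and hotspot lists of 2 biological replicates of whole mouse embryos were used as deposited, each replicate separately. Per the text files deposited with the data, the authors aligned reads to mm10 and derived both lists from each replicate's own filtered alignment. Neither aligner nor caller nor any threshold is named in the sources used here. Peak strength is a bounded score deposited by the authors. Hotspots carry a −log10 q-value that the authors' files give from 1.3 to 6, or as 100 for smaller q. The labels list 2 sequencer models for replicate 2 alone.

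The members and gene lists were chosen with earlier results of these data known. Peaks were assigned to windows by their centre and to a TSS by edge distance (1000 bp). Peaks were paired one to one by best mutual overlap of at least 1 bp, and a pair was placed by its replicate 1 peak. Named elements were the 3 distal shared peaks of highest mean strength per member, the strongest unshared peak of each replicate, the widest hotspots, every TSS group, neighbouring protein-coding genes, and, from the lists, the strongest 3 and those not open in both replicates; other named items were chosen after their values were seen. Printed sequences leave out exons, and 1 listed gene and 1 element's sequence are not reported here. Pairing and distances were tested on simulated data. Python 3.11.15, pandas 2.3.3, numpy 2.4.6, pysam 0.24.0, samtools 1.23.1 and matplotlib 3.10.9 were used.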

Additional observations from a re-analysis of the deposited data

How the results depend on the processing

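The count of 4 members open at a TSS in both replicates was the same with TSS windows of 500 and 2500 bp, the 5′-most TSS, hotspots in place of peaks and the stronger 50% of peaks, and was 4 to 5 with 1 replicate left out. Mean start-site strength of those 4 was 89.9 and 77.4 at the 5′-most TSS, by its strongest or nearest peak (82.5 to 97.3 with 1 replicate left out). The 48 distal shared peaks became 30 with 50 kb flanks and 95 with 200 kb flanks, and 66 to 198 distal peaks were counted in a single replicate. The palindrome share of 4.17% was 6.67% with 50 kb flanks, 6.25% in the stronger 50% of peaks and 4.55% to 5.56% in a single replicate. The 53-peak run at Tfap2b held 10 peaks at a 500 bp gap, 83 at a 2 kb gap and 3 in replicate 1; these run settings and the nearest-peak rule were chosen after seeing the data. The replicate ratio of peak counts over all windows, 2.92, ranged from 2.89 to 3.65; for Tfap2d alone, 10.1 became 5.33 with 50 kb flanks and 6.67 in the stronger 50% of peaks, and for Tfap2b 8.64 became 10.9 and 6.38. Hotspot length over all windows, 61.0 kb on average, was 24.6 to 97.5 kb in a single replicate, and the overlap share of 52.3% was 47.3% to 61.4%. Tfap2d has no mean start-site strength, since replicate 1 had no peak there. The cause of these moves was not tested. No paired analysis was possible because there is 1 group. With 2 replicates, an unknown depth and a bounded score, an element missing from a list cannot be told from one below the authors' threshold.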
